A study of Xenopus laevis with 6 samples.

Results

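The genes described here encode SNAREs, vesicle coats and sorting proteins, and are those of *Xenopus laevis* whose annotated symbol starts with stx, vamp, sec, snx, vps, trappc or exoc and a number, or with cop and one of the letters a, b, e, g and z, or is clta, cltb or cltc. The rule uses names only and no measured value. It found 138 of the 11303 genes that had a probe set with 1 gene symbol, and 126 of the 138 passed the filter on low intensity, as did 8026 of the 11303. The 12 that did not pass (*copb1.L*, *sec14l3.L*, *sec22b.S*, *sec22c.L*, *sec24d.L*, *sec61g.S*, *snx22.L*, *stx19.L*, *stx3.L*, *stx8.S*, *vps35.L* and *vps51.S*) were not tested. Most frog genes of this species exist as 2 homeologs, whose symbols end in .L and .S, and each copy was counted as a gene of its own. A name is not a function: *vps72* encodes a subunit of chromatin remodelling complexes, and the sec61, sec62, sec63 and sec11 genes act at the entry of proteins into the endoplasmic reticulum rather than in vesicles.

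Membrane traffic moves proteins and lipids between the compartments of a cell in coated vesicles. Coat proteins (COPII leaving the endoplasmic reticulum, COPI returning to it, clathrin at the trans-Golgi network and plasma membrane) bend the membrane and collect cargo, tethers such as the TRAPP complexes and the exocyst hold the vesicle at its target, and SNARE proteins (syntaxins and VAMPs) fuse the membranes. Sorting nexins, retromer and the ESCRT complexes then decide at the endosome which proteins are recycled and which go on to the lysosome. A cleaving frog embryo uses this machinery to add plasma membrane in every division, working from RNA and protein that the egg stored.

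The comparison set 3 arrays of animal samples against 3 of vegetal samples, all at the 8-cell stage, with no genotype named and no treatment other than removal of the jelly coat and fixation. The animal group held RNA of whole animal blastomeres, the upper cells of the embryo, and the vegetal group held RNA of the lowest part of the vegetal blastomeres. The equatorial remainder was thrown away so that the poles would differ as much as possible. Embryos came from 2 pairs of frogs mated after hormone treatment, were fixed in alcohol and acid, and were then cut. The study set out to find RNAs enriched at the animal pole, and the labels do not say whether replicates were separate clutches, so that the p-values measure the spread between these samples, which may be technical.

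Each value is 1 linear intensity per probe set and array, with 1 probe set standing for a gene. Arrays correlated at 0.981 to 0.987 within a group and at 0.889 to 0.895 between groups. All 8 tested genes of a vegetal pole list that includes *grip2* and *vegt* were higher in vegetal samples, and all 5 of an animal pole list that includes *foxi2* were higher in animal samples. Both lists were chosen with earlier results of these data known, so they are no independent check of the samples. Of 11 follicle and blood genes, 10 were at or under the unspiked control probe sets on every array, and the list's summed intensity was 23.3 to 33.6 on animal and 36.3 to 43.7 on vegetal arrays. The ratio of 3′ to 5′ signal of *gapdh*, which rises as RNA or its copies get shorter, was 3.96 to 4.31 on animal and 6.96 to 7.77 on vegetal arrays. It moved with the groups, and its part in the results below was not tested. Animal samples held whole blastomeres and vegetal samples only part of them. A difference between blastomeres and a difference within a blastomere therefore cannot be told apart.

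The traffic genes as a whole were called toward each pole about as often as other genes. Of the 126 tested, 37 (29.4%) were higher in animal samples, where 27.1% of all 8026 genes were, and 25 (19.8%) were higher in vegetal samples, where 23.7% of all genes were. The other 64 did not pass the adjusted p of 0.05. The median difference of mean log2 intensity of the 126, animal minus vegetal, was 0.03, as was that of all genes tested, with single genes between -2.56 and 1.69. The groups of 3 arrays did not overlap for 67 of the 126 (53.2%), against 58.3% of all genes. All of these shares lie near the shares of all genes.

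Most of the calls were of less than 2-fold. Of the 62 traffic genes past the threshold, 27 differed by less than 1.5-fold, 20 by 1.5-fold to 2-fold and 15 by at least 2-fold. Those 15 comprised 9 that were higher in animal samples (7.14% of the 126, against 7.95% of all genes) and 6 that were higher in vegetal samples (4.76%, against 6.57%). How many of all genes differed by less than 1.5-fold or by 1.5-fold to 2-fold was not counted, so the sizes show nothing particular to the traffic genes. The 95% confidence interval of a traffic gene reached 0.30 log2 units to each side at the median, and 0.21 for the brighter and 0.39 for the dimmer genes, so that small differences of dim genes could not be resolved.

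**Figure D1:**
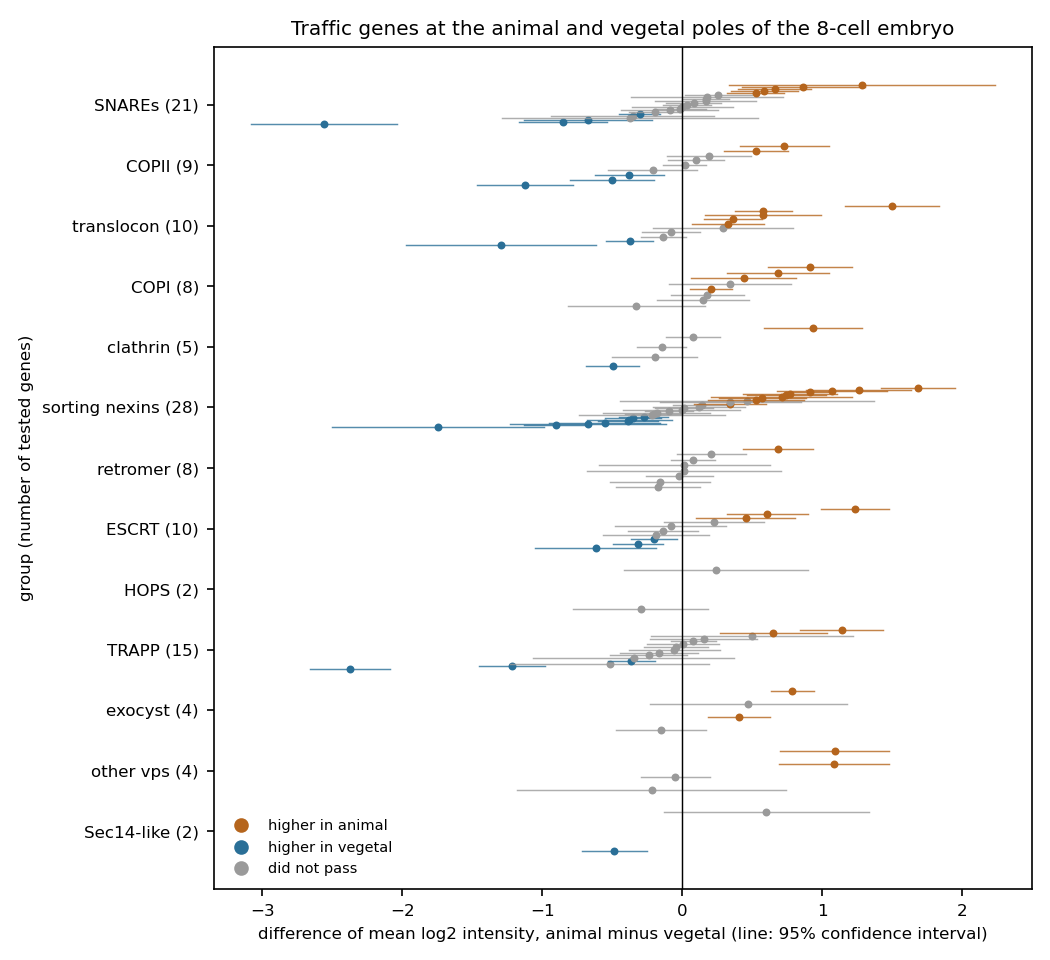
Difference of mean log2 intensity, animal minus vegetal, of each of the 126 tested genes, by complex or family. Points are single genes and lines their 95% confidence intervals (limma, 3 arrays per group), orange for genes higher in animal samples, blue for genes higher in vegetal samples and grey for those that did not pass, and in every family genes lie on both sides of 0.

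How many genes fell on each side depended on the scaling of the arrays. The deposited values, each array scaled to the same trimmed mean, gave 37 calls toward the animal and 25 toward the vegetal pole. After median centring the counts were 23 and 50, and after scaling to the spiked control probe sets they were 43 and 8. The median of all genes moved with them: it was 0.03 as deposited, -0.24 with median centring and 0.27 with the spiked controls, and the median of the traffic genes was 0.03, -0.24 and 0.27. A family's balance between the poles is therefore given below with its counts under median centring and the spiked controls. The deposited counts of each family stand against 27.1% of all genes toward the animal and 23.7% toward the vegetal pole. No family has more than 28 tested genes, and whether any departs from these shares was not tested. In every alternative that gave a value, 27 genes kept their call, 20 of them toward the animal and 7 toward the vegetal pole. How many of all genes kept theirs was not counted, so these numbers show no lean particular to the traffic genes. Calls over all 8026 genes moved too, from 2177 toward the animal and 1905 toward the vegetal pole as deposited. Median centring gave 1193 and 3284, and the spiked controls gave 2785 and 826.

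**Figure D2:**
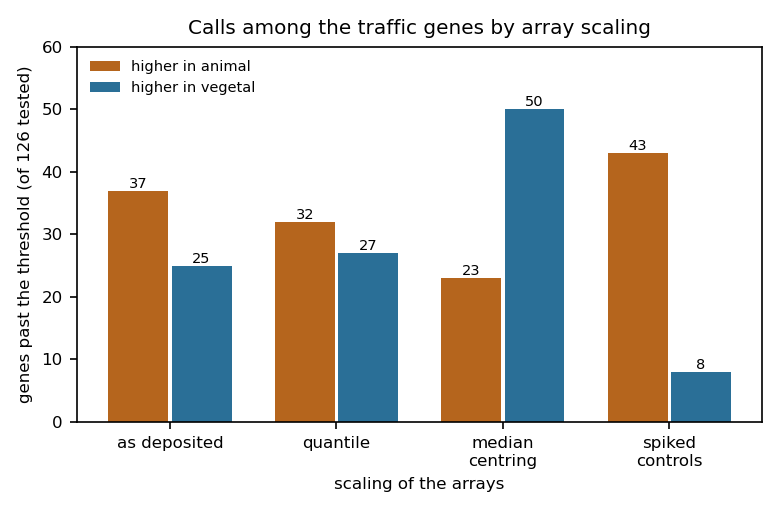
Number of the 126 tested traffic genes that passed the threshold in each direction under 4 scalings of the arrays. Orange bars are genes higher in animal and blue bars genes higher in vegetal samples. The counts were 37 and 25 as deposited, 32 and 27 after quantile normalization, 23 and 50 after median centring, and 43 and 8 with the spiked controls.

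Proteins enter the secretory route through the Sec61 channel of the endoplasmic reticulum. Of 10 tested genes for this step and for signal peptidase, 5 passed with more signal at the animal pole, 2 with more at the vegetal pole, and 3 did not pass. Median centring turned this balance to 2 and 4, while the spiked controls gave 5 and 1. The largest difference was that of *sec63.L*, a channel partner that recruits the chaperone BiP. Its intensity was 245.5, 179.9 and 173.2 on the animal arrays, against 60.7, 74.0 and 75.8 on the vegetal arrays. It was 2.82-fold higher in animal samples (95% CI 2.24 to 3.56, adjusted p = 1.45e-06). The gene's other probe set gave 209.3, 228.9 and 183.1 on animal and 27.9, 45.1 and 53.2 on vegetal arrays, a 5.08-fold difference in the same direction. Its brighter probe set is of a kind that can share probes with other transcripts.

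The channel subunits themselves differed less. For *sec61b.L*, the beta subunit, the arrays read 497.1, 486.2 and 502.3 in animal samples and 367.6, 334.1 and 298.1 in vegetal samples, a 1.49-fold difference (95% CI 1.30 to 1.72, adjusted p = 0.000134). The gamma subunit *sec61g.L* was 1.28-fold higher in animal samples (adjusted p = 0.00643) and lost its call with median centring. The alpha subunit *sec61a1.S* was 1.25-fold higher in animal samples (adjusted p = 0.0344), a call kept under only 9 of 15 alternatives. Both of the genes higher in vegetal samples act beside the channel. *sec62.S*, another channel partner, gave 1588.4, 1638.2 and 1850.7 on animal against 2339.6, 2124.4 and 2112.4 on vegetal arrays, and was 1.30-fold lower in animal samples (95% CI 1.15 to 1.46, adjusted p = 0.00101). Its call was lost with the spiked controls. *sec11c.S*, a catalytic subunit of signal peptidase, gave 38.4, 24.2 and 16.6 on animal arrays and 38.2, 80.6 and 74.1 on vegetal arrays. It was 2.46-fold lower in animal samples (95% CI 1.53 to 3.93, adjusted p = 0.00325), but the groups overlapped, the call was lost without the filter, and a second probe set did not pass (-0.60 on the log2 scale). The related *sec11a.S* was 1.49-fold higher in animal samples (adjusted p = 0.0225), with overlapping groups and with a call that 7 alternatives ended, among them median centring and the removal of single arrays. *sec11a.L* differed least of the family, by -0.08 on the log2 scale (95% CI -0.28 to 0.12).

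The COPII coat carries cargo out of the endoplasmic reticulum. Of 9 tested genes, 2 passed with more signal at the animal pole, 3 with more at the vegetal pole, and 4 did not pass, with 2 and 5 after median centring and 4 and 1 with the spiked controls. *sec16a.S* encodes the scaffold of the exit sites where the coat assembles. Animal arrays read 52.6, 47.0 and 47.3 and vegetal arrays 97.8, 98.5 and 125.6, and the gene was 2.18-fold lower in animal samples (95% CI 1.72 to 2.77, adjusted p = 3.61e-05). The coat's own subunits went the other way in 2 cases. *sec31b.S*, of the outer cage, had 121.2, 120.1 and 107.2 in animal and 70.3, 60.8 and 80.1 in vegetal samples, a 1.66-fold difference (95% CI 1.33 to 2.07, adjusted p = 0.000856). *sec24c.S*, of the inner coat that binds cargo, had 249.9, 216.8 and 219.5 in animal and 156.3, 159.2 and 160.5 in vegetal samples, a 1.44-fold difference (95% CI 1.23 to 1.69, adjusted p = 0.000863). These 3 genes kept their calls under all 15 alternatives. For *sec16a.S*, however, a second and dimmer probe set did not pass (-0.33 on the log2 scale, adjusted p = 0.537), and the mean of both was -0.73 instead of -1.12.

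The other COPII calls were less firm. *sec23ip.S*, whose product binds Sec23, was 1.42-fold lower in animal samples (adjusted p = 0.00764), a call lost with the spiked controls and without the filter. *sec13.S*, the other cage subunit, was 1.30-fold lower in animal samples on its brightest probe set (255.4, 219.6 and 201.8 on animal against 267.2, 322.4 and 288.3 on vegetal arrays, adjusted p = 0.0123). A dimmer probe set read 26.7, 31.3 and 31.9 on animal against 16.8, 7.1 and 14.6 on vegetal arrays and was 2.48-fold higher in animal samples (adjusted p = 0.0035), so that no direction can be given for the gene. *sec24a.S* did not differ measurably, at 1867.5, 2073.2 and 2032.7 on animal and 2010.7, 1875.8 and 2007.0 on vegetal arrays (fold 1.01, 95% CI 0.911 to 1.13), although scaling moved it past the threshold in one direction or the other.

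COPI coats bring material back from the Golgi. Of 8 tested coatomer genes, 4 passed with more signal at the animal pole, none with more at the vegetal pole, and 4 did not pass. After median centring 2 passed toward the animal and 1 toward the vegetal pole, and with the spiked controls 4 and 0. Of all genes as deposited, 27.1% passed toward the animal and 23.7% toward the vegetal pole. Whether these 8 depart from those shares was not tested. *copz1.L*, the zeta subunit, read 154.1, 136.7 and 139.4 on animal and 76.8, 66.9 and 86.0 on vegetal arrays, 1.88-fold higher in animal samples (95% CI 1.53 to 2.32, adjusted p = 7.24e-05). It alone of the 8 kept its call under every alternative. *copa.L*, the alpha subunit, read 179.7, 132.1 and 182.2 on animal and 79.0, 110.9 and 119.0 on vegetal arrays. That is a 1.61-fold difference (95% CI 1.25 to 2.07, adjusted p = 0.00364), but its other probe set differed by -0.04 on the log2 scale and the call was lost with the mean of both and without the filter. *copg1.L* (1.35-fold, adjusted p = 0.0474, groups overlapping) and *copz1.S* (1.15-fold, adjusted p = 0.0243) lost their calls under 9 and 6 of the 15 alternatives. For *copg1.L* these values are those of its brightest probe set. The other tested probe sets of *copg1.L* were 1.79-fold and 1.54-fold higher in animal samples (adjusted p = 0.00143 and 0.0277). The call of *copg1.L* held with the mean of all its tested probe sets. *cope.S* was the one with a difference below 0 (-0.33), and *copb2.S* differed least (0.15). Neither passed as deposited, but *cope.S*, whose groups did not overlap, passed toward the vegetal pole after quantile normalization and after median centring.

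The TRAPP complexes tether vesicles arriving at the Golgi and activate Rab GTPases. Of 15 tested genes, 2 passed with more signal at the animal pole, 3 with more at the vegetal pole, and 10 did not pass. Median centring gave 1 and 6, the spiked controls 2 and 2. Both ends of the family lay far apart. *trappc5.L*, a core subunit, read 60.5, 46.6 and 50.5 on animal arrays against 272.1, 265.1 and 275.5 on vegetal arrays, 5.19-fold lower in animal samples (95% CI 4.25 to 6.33, adjusted p = 1.53e-09). A second probe set read 37, 36.1 and 33.3 on animal against 260.7, 234.2 and 244.9 on vegetal arrays, 6.95-fold lower in animal samples. This was the smallest adjusted p of the 126 genes, and every vegetal array exceeded every animal array more than 4-fold on that first probe set.

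*trappc13.L* belongs to the form of the complex with a part in autophagy. It read 244.5, 239.3 and 184.6 on animal and 509.6, 519.3 and 512.5 on vegetal arrays, 2.32-fold lower in animal samples (95% CI 1.97 to 2.74, adjusted p = 3.17e-07). Against these stood *trappc2.S*, another core subunit, with 182.3, 185.3 and 195.0 on animal and 87.4, 99.2 and 71.4 on vegetal arrays. It was 2.20-fold higher in animal samples (95% CI 1.79 to 2.70, adjusted p = 7.41e-06). Subunits that share the core of the complex thus differed in opposite directions at the level of their RNA, and these 3 calls held under all 15 alternatives. *trappc9.L*, of the other form of the complex, was 1.57-fold higher in animal samples (adjusted p = 0.00651), a call lost with median centring.

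*trappc11.S* was 1.29-fold lower in animal samples on its brightest probe set, which read 550.2, 557.6 and 574.8 on animal and 719.4, 751.4 and 695.6 on vegetal arrays (adjusted p = 0.00122). Of its 3 dimmer probe sets, 1 passed in the opposite direction, with 57.9, 60 and 50.8 on animal and 31, 42.4 and 47.3 on vegetal arrays (1.42-fold, adjusted p = 0.0495). The gene's direction therefore depends on the probe set. *trappc8.L* differed least of the family, reading 282.6, 220.8 and 230.1 on animal and 213.4, 264.0 and 251.8 on vegetal arrays (0.01 on the log2 scale, 95% CI -0.25 to 0.27).

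The exocyst tethers vesicles at the plasma membrane. Of 4 tested subunits, 2 were higher in animal samples and 2 did not pass, with 1 and 1 after median centring and 2 and 0 with the spiked controls. *exoc5.L* read 1332.4, 1404.2 and 1365.5 on animal and 802.3, 787.5 and 790.8 on vegetal arrays, 1.72-fold higher in animal samples (95% CI 1.55 to 1.91, adjusted p = 3.12e-07). Its replicates were among the tightest of the traffic genes and its call held under every alternative. *exoc8.S* was 1.32-fold higher in animal samples (adjusted p = 0.00412), a call lost with median centring. *exoc7.L* (0.47 on the log2 scale, 95% CI -0.23 to 1.17) and *exoc4.L* (-0.15) did not pass. The 2 tested HOPS tethers of the late endosome, *vps11.S* and *vps18.S*, did not pass either, at -0.30 and 0.24 on the log2 scale, though *vps11.S* passed after median centring. The 1 GARP gene, *vps51.S*, was not tested.

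SNAREs carry out the fusion itself. By name alone 21 tested genes were counted as SNAREs, among them *sec22a.L* and *sec22a.S*, whose part in fusion was not checked. Of these 21 genes, 5 passed with more signal at the animal pole, 4 with more at the vegetal pole, and 12 did not pass. The counts were 3 and 7 after median centring and 7 and 2 with the spiked controls. Of the 6 VAMPs, which sit on the vesicle, 2 passed toward the animal and 2 toward the vegetal pole, with 1 and 2 after median centring and 3 and 2 with the spiked controls. *vamp8.S* showed the largest difference of the probe sets that stood for a traffic gene in the deposited values, although *trappc5.L* passed it with the mean of all probe sets (-2.59 against -2.56) and with an offset of 16 added to each intensity (-2.07 against -1.76). It also passed *vamp8.S*, barely, without vegetal replicate 2 (-2.391 against -2.384). VAMP8 is known in mammals from fusion at late endosomes and lysosomes and from the release of secretory granules. The probe set of *vamp8.S* read 20.2, 15.4 and 11.7 on animal arrays against 76.7, 115.8 and 84.0 on vegetal arrays. It was 5.90-fold lower in animal samples (95% CI 4.10 to 8.47, adjusted p = 5.5e-07), and between the 2 groups lay a wide gap.

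Its homeolog went the other way. *vamp8.L* read 296.8, 295.1 and 252.8 on animal and 204.6, 187.5 and 171.1 on vegetal arrays, 1.5-fold higher in animal samples (95% CI 1.27 to 1.77, adjusted p = 0.000466). A second probe set of *vamp8.L* had a like difference (0.63 on the log2 scale) but did not pass, and both homeologs kept their calls under every alternative with a value. *vamp7.L*, a SNARE of lysosome fusion, read 166.6, 144.5 and 123.4 on animal and 301.4, 209.3 and 277.1 on vegetal arrays. It was 1.80-fold lower in animal samples (95% CI 1.45 to 2.24, adjusted p = 0.000199), again under every alternative.

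*vamp2.L*, whose mammalian counterpart serves regulated exocytosis, was dim. It read 18.7, 20 and 22.7 on animal and 3.5, 13 and 13 on vegetal arrays, where the lowest value was not above the control probe sets. The fitted difference was 2.43-fold (95% CI 1.26 to 4.69, adjusted p = 0.0251) and 7 alternatives ended the call. Without the lowest array, vegetal replicate 1, the log2 difference was 0.65 instead of 1.28 and did not pass.

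Among syntaxins, the SNAREs of the target membrane, *stx18.L* was higher in animal samples under every alternative. Syntaxin 18 works in the return of vesicles to the endoplasmic reticulum. The arrays read 215.6, 205.1 and 173.1 in animal and 119.3, 135.0 and 121.0 in vegetal samples, a 1.58-fold difference (95% CI 1.31 to 1.90, adjusted p = 0.000414). The entry named *stx18* with no homeolog letter did not differ, reading 50.6, 50.8 and 51.5 on animal and 49.7, 49.5 and 53.9 on vegetal arrays (fold 0.999, 95% CI 0.777 to 1.29). *sec22b.L*, a SNARE between the endoplasmic reticulum and the Golgi, read 68.1, 64.1 and 55.8 on animal and 33.1, 43.4 and 28.1 on vegetal arrays, 1.82-fold higher in animal samples (95% CI 1.34 to 2.46, adjusted p = 0.00251). Its other probe set differed by 0.08 on the log2 scale, and the mean of both did not pass.

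*stx10.L*, of the trans-Golgi network, read 27.6, 37.4 and 27.5 on animal and 54.6, 41.2 and 51.1 on vegetal arrays. It was 1.59-fold lower in animal samples (95% CI 1.16 to 2.19, adjusted p = 0.016), a call lost with the spiked controls and when any 1 of 3 arrays was left out. *stx19.S*, a plasma membrane syntaxin, had 10 probe sets, of which 3 passed the filter and were tested. Of these, 2 bright ones agreed and 1 did not. The brightest read 1973.5, 1967.5 and 2064.8 on animal and 2551.7, 2333.6 and 2539.0 on vegetal arrays, 1.24-fold lower in animal samples (adjusted p = 0.00184). The third read 625.3, 551.6 and 549.3 on animal and 498.3, 489.2 and 494.4 on vegetal arrays, 1.16-fold higher in animal samples (adjusted p = 0.043), so that the gene has no single direction. *vamp1.L*, picked out after its values were seen, had tested probe sets that differed in size but not in direction. Its brightest probe set did not pass (0.17 on the log2 scale, adjusted p = 0.0875). Its second read 1244.9, 1185.4 and 1225.5 on animal and 605.6, 554.5 and 537.2 on vegetal arrays (2.16-fold, adjusted p = 1.88e-08).

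Over all 28 traffic genes with several tested probe sets, 15 had the same call on each of them and 3 (*sec13.S*, *stx19.S* and *trappc11.S*) had calls in opposite directions, as did 124 of 1692 such genes in the whole table. How many of the 1692 had the same call on each probe set was not counted. Different probe sets can report different transcript ends or a homeolog, which the annotation used here does not resolve.

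*vps45.S* encodes a regulator that holds syntaxins of the early endosome and trans-Golgi network. It read 117.4, 106.7 and 79.1 on animal and 54.6, 42.7 and 44.5 on vegetal arrays. It was 2.12-fold higher in animal samples (95% CI 1.62 to 2.79, adjusted p = 0.000167) under every alternative. *vps72.S*, which the name brought into the set although it is a chromatin protein, was 2.13-fold higher in animal samples (75.6, 73.3 and 69.4 on animal against 29.7, 33.5 and 40.3 on vegetal arrays, adjusted p = 0.000164). *vps13a.L*, a lipid transfer protein, was dim and did not pass (-0.22 on the log2 scale, 95% CI -1.18 to 0.74). Of 2 tested Sec14-like lipid-binding genes, *sec14l1.L* was 1.40-fold lower in animal samples (adjusted p = 0.00159), a call lost with the spiked controls, and *sec14l5.S* did not pass (0.60, 95% CI -0.13 to 1.33).

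**Figure D3:**
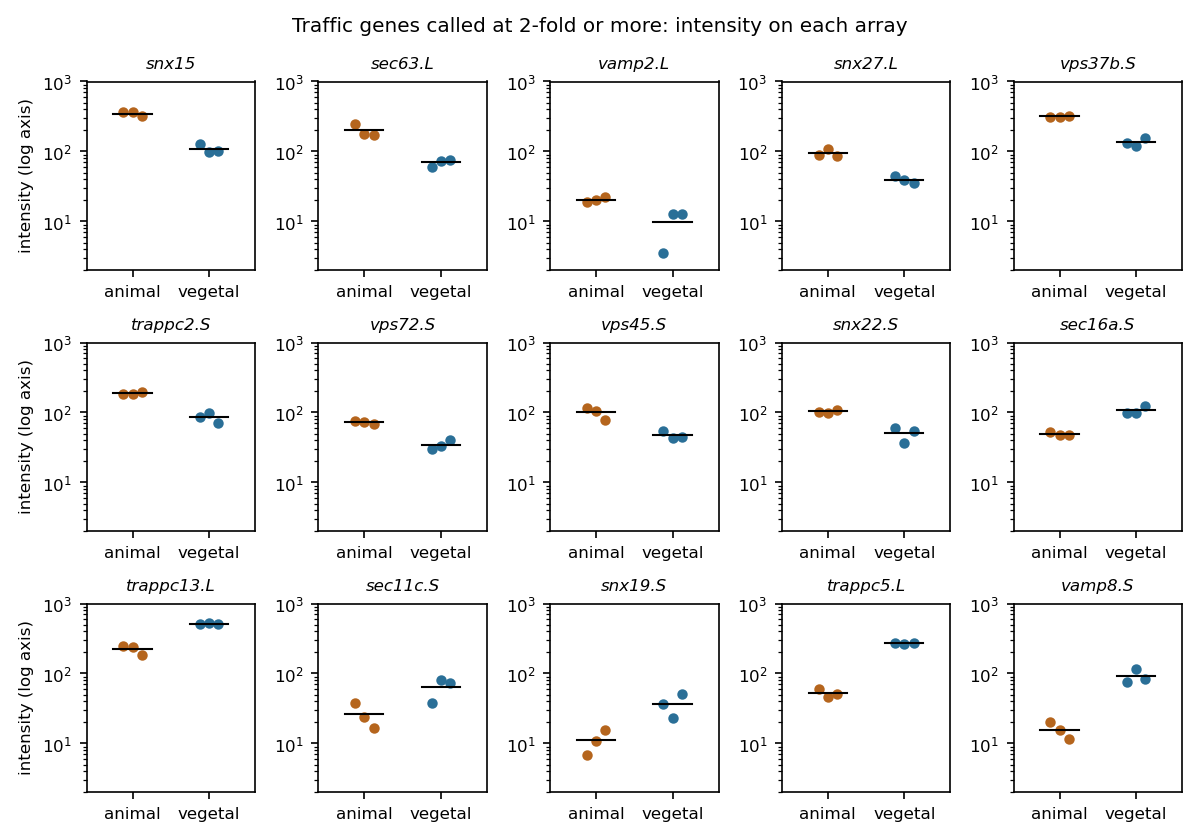
Intensity on each array (log axis, points), with the mean of each group (line), of the 15 traffic genes that differed by at least 2-fold and passed the threshold. The first 9 panels are genes higher in animal samples and the last 6 genes higher in vegetal samples, and only in *sec11c.S* did the groups overlap.

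Clathrin forms the cage of endocytic and trans-Golgi vesicles from a heavy chain and light chains. Of its 5 genes, 1 passed with more signal at the animal pole, 1 with more at the vegetal pole, and 3 did not pass, with 1 and 3 after median centring and 1 and 0 with the spiked controls. The light chain *cltb.S* read 225.1, 180.5 and 172.9 on animal and 130.2, 84.1 and 92.5 on vegetal arrays. It was 1.91-fold higher in animal samples (95% CI 1.5 to 2.43, adjusted p = 0.000238) under every alternative. The other light chain, *clta.S*, read 386.3, 401.6 and 355.7 on animal and 562.4, 512.0 and 540.1 on vegetal arrays, 1.41-fold lower in animal samples (95% CI 1.24 to 1.61, adjusted p = 0.000241), a call lost with the spiked controls. The heavy chain *cltc.L* did not pass, at 1998.3, 2097.5 and 2263.3 on animal and 2605.4, 2168.1 and 2287.3 on vegetal arrays (fold 0.902, 95% CI 0.800 to 1.02).

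Sorting nexins bind phosphoinositides on endosomes through a PX domain, and some also bend the membrane with a BAR domain. They were the largest family: of 28 tested, 10 passed with more signal at the animal pole, 8 with more at the vegetal pole, and 10 did not pass, with 6 and 12 after median centring and 10 and 2 with the spiked controls. Of the 11 with a BAR domain, 2 passed toward the animal and 5 toward the vegetal pole, with 0 and 6 after median centring and 2 and 1 with the spiked controls. Of the 17 others, 8 passed toward the animal and 3 toward the vegetal pole, with 6 and 6 and with 8 and 1. The balance of the BAR-domain nexins thus depends on the scaling, as does that of all genes. Whether these subfamilies differ was not tested.

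*snx15* had the largest difference toward the animal pole among the probe sets that stood for a gene, at 1.69 on the log2 scale, though the means of all probe sets of *sec63.L* (1.92) and *snx27.L* (1.73) lay above it. It read 361.4, 366.4 and 318.4 on animal and 127.6, 98.8 and 100.6 on vegetal arrays, 3.21-fold higher in animal samples (95% CI 2.68 to 3.86, adjusted p = 3.03e-08). *snx27.L*, the adaptor that returns membrane proteins with PDZ-binding tails from endosomes to the surface, read 90.1, 108.1 and 85.6 on animal and 45.0, 38.6 and 35 on vegetal arrays. That is a 2.39-fold difference (95% CI 1.85 to 3.10, adjusted p = 2.58e-05). Its second probe set gave 49.9, 60.6 and 56.2 on animal and 11.2, 10.6 and 14.5 on vegetal arrays, 4.62-fold higher in animal samples. In none of these did the groups overlap.

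*snx22.S* followed, with 102.8, 99.3 and 108.6 on animal and 59.5, 37.2 and 54.4 on vegetal arrays, a 2.10-fold difference (95% CI 1.6 to 2.75, adjusted p = 0.000196). *snx3.L*, whose product works with retromer in the recycling of the Wnt carrier Wntless, read 955.9, 974.9 and 906.0 on animal and 504.7, 532.6 and 472.5 on vegetal arrays. It was 1.88-fold higher in animal samples (95% CI 1.67 to 2.12, adjusted p = 2.46e-07). *snx10.S*, known in mammals for a role in endosome size, and *snx31.S*, a relative of the cargo adaptor Snx17, were 1.70-fold and 1.67-fold higher in animal samples (adjusted p = 0.000832 and 0.000266). These 6 nexins kept their calls under all 15 alternatives.

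At the vegetal pole the leading nexin was *snx19.S*, a dim probe set with 6.8, 10.9 and 15.5 on animal and 36.5, 23.3 and 50.9 on vegetal arrays. It was 3.35-fold lower in animal samples (95% CI 1.99 to 5.66, adjusted p = 0.000775). The groups did not overlap, but the replicates spread widely and the log2 difference was -0.95 instead of -1.75 when an offset of 16 was added to each intensity. *snx18.L*, a BAR-domain nexin of endocytosis, read 307.2, 275.5 and 311.3 on animal and 477.0, 629.9 and 574.9 on vegetal arrays, 1.87-fold lower in animal samples (95% CI 1.6 to 2.19, adjusted p = 5.65e-06). Both calls held wherever a value could be had, while the calls of *snx12.S*, *snx5.S*, *snx1.L*, *snx3.S*, *snx7.S* and *snx30.S*, lower in animal samples by 1.21-fold to 1.6-fold, were all lost with the spiked controls. *snx18.S* differed least, at -0.003 on the log2 scale (95% CI -0.42 to 0.41).

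Retromer returns receptors from the endosome to the Golgi or the surface, and retriever does so beside it. Of 8 tested genes of both, 1 was higher in animal samples and 7 did not pass, with 1 and 3 after median centring and 3 and 0 with the spiked controls. *vps26b.L* read 232.4, 226.1 and 211.7 on animal and 131.4, 158.1 and 129.0 on vegetal arrays, 1.61-fold higher in animal samples (95% CI 1.35 to 1.91, adjusted p = 0.000191) under every alternative. The core subunit *vps35.S* read 1795.2, 1929.6 and 1949.1 on animal and 1745.3, 1720.9 and 1910.6 on vegetal arrays, with overlapping groups (fold 1.06, 95% CI 0.948 to 1.18). *vps35l.S*, of retriever, differed least (0.01), but its interval of -0.68 to 0.70 on the log2 scale leaves differences of either sign.

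ESCRT complexes sort ubiquitinated proteins into vesicles inside the endosome and also cut the membrane bridge at the end of cell division. Of 10 tested genes, 3 passed with more signal at the animal pole, 3 with more at the vegetal pole, and 4 did not pass, with 2 and 5 after median centring and 3 and 0 with the spiked controls. *vps37b.S*, of ESCRT-I, stood out, with 313.5, 314.3 and 321.6 on animal and 131.9, 120.0 and 153.4 on vegetal arrays. It was 2.35-fold higher in animal samples (95% CI 1.99 to 2.79, adjusted p = 3.56e-07) under every alternative. *vps28.S*, another ESCRT-I subunit, was 1.52-fold higher in animal samples (412.8, 315.3 and 345.6 on animal against 243.5, 191.5 and 273.3 on vegetal arrays, adjusted p = 0.00155) and lost its call only without the filter. *vps36.L*, of ESCRT-II, was 1.37-fold higher in animal samples (adjusted p = 0.0326), and 6 alternatives ended that call.

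Toward the vegetal pole the ESCRT calls were small. *vps37a.S* read 47.0, 80.3 and 85.1 on animal and 116.7, 104.4 and 95.5 on vegetal arrays, 1.54-fold lower in animal samples (95% CI 1.14 to 2.08, adjusted p = 0.0189). *vps4b.S*, the ATPase that takes the complexes apart, was 1.25-fold lower in animal samples (adjusted p = 0.00496). The call of *vps37a.S* was lost under 6 alternatives. Without animal replicate 1, its lowest array, the log2 difference was -0.35 instead of -0.62 and did not pass, and a second, dimmer probe set differed by 0.001. The calls of *vps4b.S* and *vps37b.L* were lost with the spiked controls, as was that of *vps37a.S*. *vps4a.L* differed least (-0.08, 95% CI -0.48 to 0.31).

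Copies of one gene often differed from each other. In 29 pairs of homeologs both copies were tested, and the difference between the poles itself was compared between the copies, as log2 .L minus log2 .S within each array, which a constant scaling of an array cannot change. In 18 pairs (62.1%) it differed between the copies, against 43.6% of all 1357 pairs of the table, and whether that share is unusual was not tested. In 4 pairs (13.8%, against 8.92% of all pairs) the copies passed the threshold in opposite directions. In 18 of the 29 pairs 1 copy was called and the other was not, against 597 of all 1357 pairs, a smaller share. Both copies had the same call in only 1 of the 29, against 291 of the 1357, a larger share. Neither copy was called in 6 of the 29 and in 348 of the 1357. Whether this split is unusual was not tested.

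**Figure D4:**
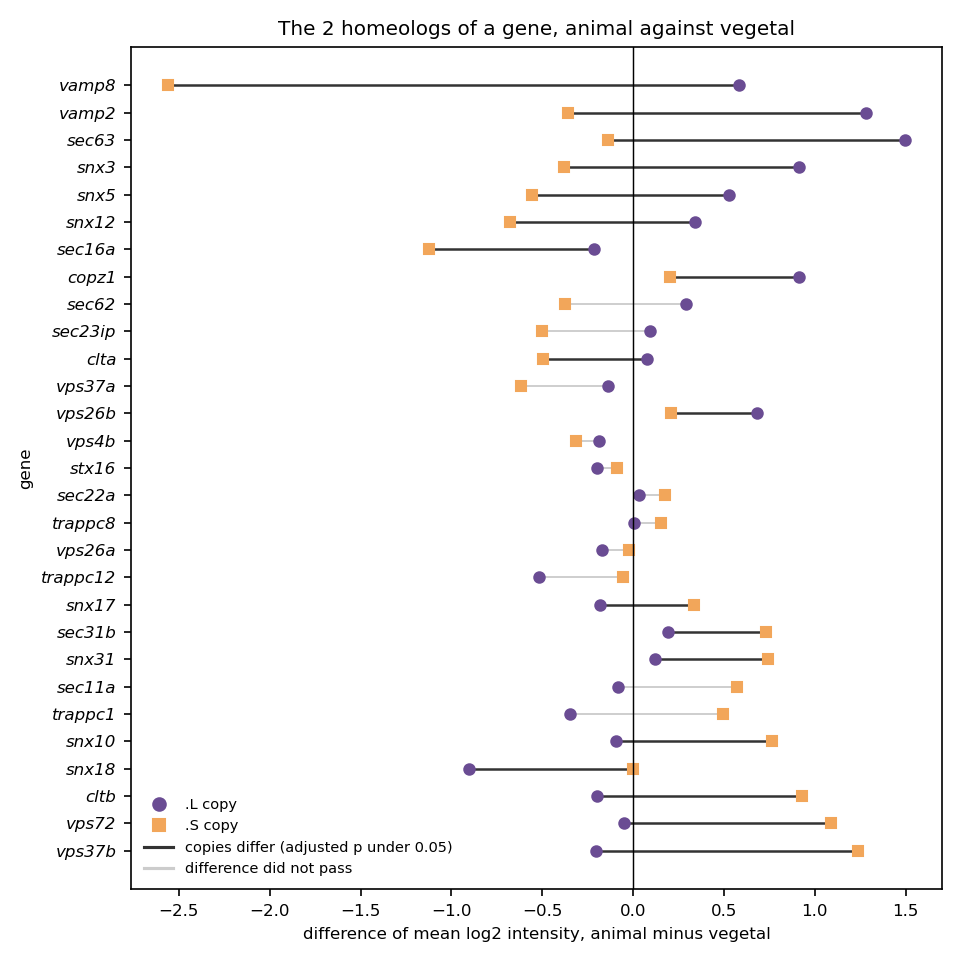
Difference of mean log2 intensity, animal minus vegetal, of the .L copy (purple circle) and the .S copy (orange square) of each of the 29 pairs, sorted by the gap between the copies. Dark lines mark the 18 pairs whose copies differed and pale lines the 11 that did not pass, and *vamp8* at the top and *vps37b* at the bottom have copies on opposite sides of 0.

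*vamp8* was the extreme pair: the copies' ratios of animal to vegetal intensity were 8.84-fold apart (95% CI 6.03 to 13, adjusted p = 0.000107). *snx3* was also opposed. *snx3.S* read 75.9, 75.5 and 73.1 on animal and 96.4, 105.7 and 90.3 on vegetal arrays, 1.30-fold lower in animal samples, while *snx3.L* was higher there, and the copies were 2.44-fold apart (95% CI 2.00 to 2.98, adjusted p = 0.000304). The call of *snx3.S* on its own was lost when any 1 of 5 arrays was left out, while the difference between the copies was not lost in any alternative.

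*vps37b* had the reverse order, with its .S copy higher in animal samples. *vps37b.L* read 1856.0, 2123.0 and 2148.4 on animal and 2482.8, 2300.4 and 2270.5 on vegetal arrays, 1.15-fold lower in animal samples (adjusted p = 0.0359), a call that 9 alternatives ended. The copies were 2.71-fold apart (95% CI 2.08 to 3.55, adjusted p = 0.000703). *snx5*, a subunit of the coat that works with retromer, was the fourth opposed pair. *snx5.L* read 97, 96.6 and 85.4 on animal and 74.1, 54.4 and 66.3 on vegetal arrays, and *snx5.S* read 61, 44.8 and 50.8 on animal and 68.8, 69.4 and 92.3 on vegetal arrays. The copies were 2.12-fold apart (95% CI 1.54 to 2.92, adjusted p = 0.00491), although each copy's own call depended on the setting.

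In other pairs 1 copy differed between the poles and the other did not pass. *sec63.S* read 877.5, 884.6 and 808.3 on animal and 932.4, 924.8 and 966.1 on vegetal arrays, and the *sec63* copies were 3.10-fold apart (95% CI 2.33 to 4.12, adjusted p = 0.000506). *vps72.L* read 351.6, 324.7 and 270.1 on animal and 291.5, 326.1 and 360.9 on vegetal arrays, and the *vps72* copies were 2.20-fold apart (95% CI 1.77 to 2.74, adjusted p = 0.000749). *snx10.L* read 1177.0, 1330.8 and 1404.4 on animal and 1440.4, 1411.5 and 1320.2 on vegetal arrays, and the *snx10* copies were 1.82-fold apart (95% CI 1.31 to 2.53, adjusted p = 0.0131). In each of these the copy that moved is the one described above as higher in animal samples.

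*copz1* was the pair with 1 call in common: both copies were higher in animal samples, and still 1.63-fold apart (95% CI 1.28 to 2.09, adjusted p = 0.009). The *sec31b* and *clta* copies were 1.45-fold and 1.49-fold apart (adjusted p = 0.0111 and 0.0143), with no alternative that ended the call. *sec16a* copies were 1.88-fold apart (adjusted p = 0.00135), a result lost with the mean of all probe sets. The differences within *cltb*, *snx12*, *snx17*, *snx18*, *snx31*, *vamp2* and *vps26b*, of 1.39-fold to 3.11-fold, were each lost without at least 2 of the single arrays. Removing single arrays left 12 to 18 of the pairs past the threshold, with the fewest when animal replicate 3 was left out.

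The 11 pairs that did not pass were *sec11a*, *sec22a*, *sec23ip*, *sec62*, *stx16*, *trappc1*, *trappc12*, *trappc8*, *vps26a*, *vps37a* and *vps4b*. Their point estimates lay between 1.08-fold and 1.79-fold, and the interval of *trappc8*, 0.912 to 1.35, allows little difference while that of *trappc1*, 1.02 to 3.16, allows a large one. Cross-hybridization between homeologs was not tested. Of the 126 probe sets, 8 (6.35%) carry a suffix that marks probes shared between transcripts, against 11% of all genes, and they include those of *sec63.L* and *sec16a.S*. The suffixes are not of 1 kind: a_at for 3, among them *sec16a.S*, s_at for 4, and x_at for *sec63.L* alone. Whether the shared transcripts belong to the same gene or to others was not checked.

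Genes that work with these proteins were found on both sides as well. From a list of SNARE partners, coat regulators, clathrin adaptors, further ESCRT subunits and tethers, 116 of 127 genes on the array were tested. Of these, 29 (25%, against 27.1% of all genes) passed toward the animal and 23 (19.8%, against 23.7%) toward the vegetal pole, and 64 did not pass, with a median of 0.05. These shares lie near those of all genes. Median centring gave 13 and 46 and the spiked controls 42 and 8.

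Every group of partners shifted with the scaling, as all genes did. Over all 8026 genes, 2177 passed toward the animal and 1905 toward the vegetal pole. These became 1193 and 3284 after median centring and 2785 and 826 with the spiked controls. The group of clathrin adaptors was not limited to adaptors that work with clathrin, since it held *ap4m1.S*, *ap4s1.L*, *ap5m1.L* and *dnm2.L*. It had 10 calls toward the animal and 6 toward the vegetal pole among 33 genes. Median centring gave 7 and 12 and the spiked controls 12 and 3. ESCRT partners had 8 and 7 among 25, with 4 and 11 and with 10 and 2. Tethers had 3 and 1 among 10, with 1 and 4 and with 4 and 0. SNARE partners had 5 and 2 among 21, with 0 and 6 and with 8 and 1, and COPI and COPII partners had 3 and 7 among 27, with 1 and 13 and with 8 and 2.

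Of the 10 largest differences among them, 8 were called in every alternative that tested the gene. *epn2.L*, *bet1l.S* and *ap1g2.L*, described below, were not tested under the 60% filter. *chmp4c.L*, an ESCRT-III subunit of the abscission checkpoint, read 161.1, 196.9 and 131.9 on animal and 30.8, 24.5 and 40.3 on vegetal arrays, 5.16-fold higher in animal samples (adjusted p = 1.69e-07). This probe set is of a kind that can share probes with other transcripts. The call held with the mean of the gene's 2 tested probe sets. *chmp3.S*, also of ESCRT-III, read 746.0, 776.0 and 933.6 on animal and 230.6, 267.7 and 265.3 on vegetal arrays (3.21-fold, adjusted p = 4e-09). *cog3.S*, of the Golgi tether COG, read 922.1, 1092.4 and 1162.6 on animal and 269.4, 326.4 and 280.7 on vegetal arrays (3.62-fold, adjusted p = 1.39e-09). The adaptor subunits *ap5m1.L* and *ap4s1.L* were 4.71-fold and 2.57-fold higher in animal samples (adjusted p = 1.17e-07 and 0.000147).

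The other direction was led by *epn2.L*, an epsin of clathrin-mediated endocytosis. It read 29, 13.1 and 13.7 on animal and 78.5, 78.1 and 69.6 on vegetal arrays, 4.34-fold lower in animal samples (adjusted p = 1.45e-05). *bet1l.S*, a Golgi SNARE that the name rule does not reach, was 3.41-fold lower in animal samples on its brightest probe set (22.2, 16.6 and 24.9 on animal against 64.1, 77.6 and 73.0 on vegetal arrays, adjusted p = 6.59e-06). That probe set is of a kind that can share probes with other transcripts. The call was lost with the mean of its 3 tested probe sets. With such means no SNARE partner lay below -0.425 on the log2 scale, against -1.77 for the brightest probe set of *bet1l.S*. The size of its difference therefore depends on the probe set. *stam2.S*, of the complex that delivers cargo to ESCRT-I, was 2.66-fold lower in animal samples (adjusted p = 1.15e-06). *kdelr1.L*, a receptor that returns endoplasmic reticulum proteins in COPI vesicles, was 2.63-fold lower there (adjusted p = 7.8e-06). Its brighter homeolog *kdelr1.S* did not pass (0.09 on the log2 scale), nor did *kdelr2.L* (-0.04). *kdelr3.L* was 1.38-fold lower in animal samples (adjusted p = 0.000388), a call lost with the spiked controls. The tenth, *ap1g2.L*, was dim, and its 2.31-fold higher level in animal samples (adjusted p = 0.00948) was lost without the filter and without animal replicate 3.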

How the data were processed

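RNA of dissected embryos was amplified and biotin-labelled, and each of 6 samples was put on its own one-colour array, per the labels' protocols. The authors deposited linear intensities, 1 for each probe set on each array. GCOS made them, per the submitters' processing notes; how it was set is not given in the sources used here. A trimmed mean (2% off each end) of 150.0 on every array showed a common scale, so no further scaling was applied. Arrays give no counts, so that their number limits the precision.

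Gene names came from the platform annotation, which can be old. For 15384 probe sets its symbol was replaced by the RefSeq symbol with the same gene number. Of 32539 probe sets other than controls, 15495 had 1 symbol. Another 4 probe sets with several symbols, one of them in the set, were not named. Values under 1 were set to 1 before log2. The lowest 40% of probe sets by mean log2 (intensity under 6.94) were dropped, which left 19523. Groups were compared with limma 3.58.1 (R 4.3.3; lmFit, eBayes with trend, two-sided), adjusted by Benjamini-Hochberg over those probe sets, threshold 0.05. For each gene the probe set with the highest mean log2 was used. Homeologs were compared likewise on log2 .L minus log2 .S per array, adjusted over 1357 pairs. Folds come from mean log2 values, and a fold lower in animal samples is vegetal over animal. The scripts were tested on simulated data.

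The genes, lists and naming rule were chosen with earlier results of these data known. The rule names the 10 genes with the largest difference in each direction whose groups do not overlap, per family up to 6 with the largest and 1 with the smallest difference, pairs past the pair test, genes with opposed probe sets, and 10 related genes. Other genes given with values were chosen after their values were seen. Deviations of same-numbered replicates correlated at -0.023 to 0.0063, so no pairing by number was seen and none was used in the main comparison. With 3 arrays per group this cannot exclude that same-numbered samples shared a clutch. The 15 alternatives were 3 other scalings, an offset of 16, no filter, a 60% filter, the mean of a gene's probe sets, no trend, a replicate block and leaving out each array.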

Additional observations from a re-analysis of the deposited data

How the results depend on the processing

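With median centring 23 traffic genes passed toward the animal and 50 toward the vegetal pole, and their median was -0.243. With the spiked controls 8 were higher in vegetal samples and the median was 0.266, and with the mean of all tested probe sets the median was 0.094. The share of calls that were higher in animal samples was 59.7% as deposited, 54.2% after quantile normalization, 31.5% after median centring and 84.3% with the spiked controls, and 53.3%, 48.6%, 26.6% and 77.1% over all genes. With median centring 25 of the 126 genes changed sign, 21 of them past the threshold neither there nor as deposited, and with the spiked controls 27 did, 26 of them past it in neither. Among genes past the threshold in at least 1 of the settings compared, directions turned for *copz1.S* (-0.064), *sec24a.S* (-0.250), *sec22a.L* (-0.236) and *snx2.S* (-0.256) with median centring, for *vps37b.L* (0.035) with the spiked controls, and for *sec13.S* (0.454) and *trappc11.S* (0.111) with the mean of all tested probe sets. Median centring and the spiked controls move all log2 values of an array by 1 constant, and the mean of probe sets brings in other probes; no further cause was tested. With a replicate block 37 genes passed toward the animal and 22 toward the vegetal pole and 18 pairs differed, with the calls of *vps37b.L*, *snx12.S* and *snx3.S* lost. Leaving out 1 array gave 30 to 36 calls toward the animal and 20 to 25 toward the vegetal pole, medians of 0.043 to 0.074 and 12 to 18 pairs. No filter gave 30 and 19. Of the 62 calls, 27 held in all alternatives with a value, and 31 of the 64 other genes passed in at least 1. Dim probe sets had the widest intervals.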
